A study of Sus scrofa with 10 samples.

Results

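The 200 most abundant loci without a gene name were examined in the nuclear RNA of cardiomyocytes sorted from minipig (Sus scrofa) hearts. Their rows carried a dash in place of a gene name in the per-library tables, and they lay on a numbered chromosome or on X. Of 16764 unnamed loci there, and of 35670 identifiers in all, the 200 with the highest mean counts-per-million value (CPM) over the 10 libraries were taken. CPM here is computed from estimated counts, with the sum over the numbered chromosomes and X as the library total. The members were thus chosen by their level, which is given below as a description and with no test. At rank 200 stood ENSSSCG00000056011 with a mean of 114.037 CPM, and at rank 199 ENSSSCG00000009633 with 114.234 CPM. Just outside were ENSSSCG00000043719 with 114.022 CPM and ENSSSCG00000043929 with 113.765 CPM, so no gap in level separates members from the loci below them.

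All animals were labelled wild type (WT), and no further strain, age, chamber, dose or time was given in the sources used here. Control libraries 1 to 5 came from animals given phosphate-buffered saline (PBS). Libraries 6 and 7 came from animals given deoxycorticosterone acetate (DOCA), a corticosteroid with mineralocorticoid action given to experimental animals to load them with salt and raise blood pressure. Libraries 8 to 10 came from animals given DOCA and JK07, which the series title names as an agonist of ERBB4, a neuregulin receptor of cardiomyocytes. Whether each library is a separate animal was not stated, and a p-value then reflects only how far these samples vary, which may be a technical spread. In RNA of sorted nuclei, fewer cells of a type and less RNA per cell cannot be told apart.

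A locus has no name in the pig annotation when no orthologous symbol was assigned to its model. Such models include long non-coding RNAs (lncRNAs), fragments of large protein-coding genes and complete genes whose symbol is missing. Nuclear RNA is rich in unspliced transcripts and in lncRNAs that stay in the nucleus, so long unspliced models can collect many reads in it. Several lncRNAs of this kind host microRNAs, short RNAs that lower the stability and translation of messenger RNAs, or small nucleolar RNAs (snoRNAs), which guide the chemical modification of ribosomal RNA.

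Total estimated counts ran from 28.1 M to 106 M per library, of which 77.8% to 90.9% lay on unplaced scaffolds. On the numbered chromosomes and X, DOCA library 7 held 3.24 M counts and DOCA library 6 held 6.79 M, against 8.57 M to 13.8 M in the other 8. Both DOCA libraries stood apart in other ways too. Of expressed chromosomal loci 19.2% and 23.9% were listed at 0 in them, against 0.0910% to 1.59% elsewhere, and mitochondrially encoded genes took 2.61% and 0.496%, against 3.73% to 8.35%. Each DOCA value below stands beside these measures, whose part in it was not tested. Of 10 cardiomyocyte markers 9 were found by name, and their summed level was 31301 to 36934 CPM in control, 33170.0 and 33281 in DOCA and 32555 to 55047 in DOCA plus JK07. Of the atrial markers, MYL7 was not found by name, and the other 3 summed to 3360.3 to 6320.2 CPM over all libraries. The 3 ventricular markers, all found, summed to 156 to 245 CPM in control, 44.2 and 49.6 in DOCA and 132 to 454 in DOCA plus JK07, nearly all of it MYL3, with IRX4 at 0 in all 10 libraries. All 6 fibroblast markers were found, with a sum of 3794 to 16984 CPM in control, 3167 in library 6, 19905 in library 7 and 3767 to 9597 in DOCA plus JK07. The 6 endothelial markers summed to 739 to 1768 CPM in control, 572 and 1536 in DOCA and 662 to 1073 in DOCA plus JK07. The 4 mural markers summed to 251 to 586 CPM in control, 273 and 402 in DOCA and 284 to 425 in DOCA plus JK07. For the 5 macrophage markers the sums were 228 to 875, 284 and 548, and 151 to 432 CPM. Of 3 erythrocyte markers 2 were found, with 15.1 to 139, 7.36 and 111, and 42.8 to 120 CPM. Lymphocyte and adipocyte markers summed to at most 5.95 and 13.9 CPM, with MS4A1 and ADIPOQ at 0 in all 10 libraries.

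Most of the abundant unnamed loci were parts or whole bodies of known protein-coding genes, and a single lncRNA locus held a large share of the counts. Compared by position with RefSeq genes of the same build, Sscrofa11.1, 86 of the 200 were pieces inside a larger protein-coding gene, 51 covered a whole protein-coding gene and 12 held one within a longer span. Another 24 overlapped a lncRNA, 11 overlapped a RefSeq gene in part and 16 touched none. Among all unnamed loci, 28.7% were such pieces (43% of members), 8.69% were whole protein-coding genes (25.5% of members), 14.6% were lncRNAs (12% of members) and 38.9% touched no RefSeq gene (8% of members). The 24 lncRNA loci held 58.1% of the members' summed mean CPM and the 86 pieces held 21.6%. Of the 98293.5 CPM of the lncRNA loci, 80312 belonged to 1 locus, and without it the other 23 held 20.2% of the rest. RefSeq's table gave no strand, so an overlap may be with the opposite strand.

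**Figure D1:**
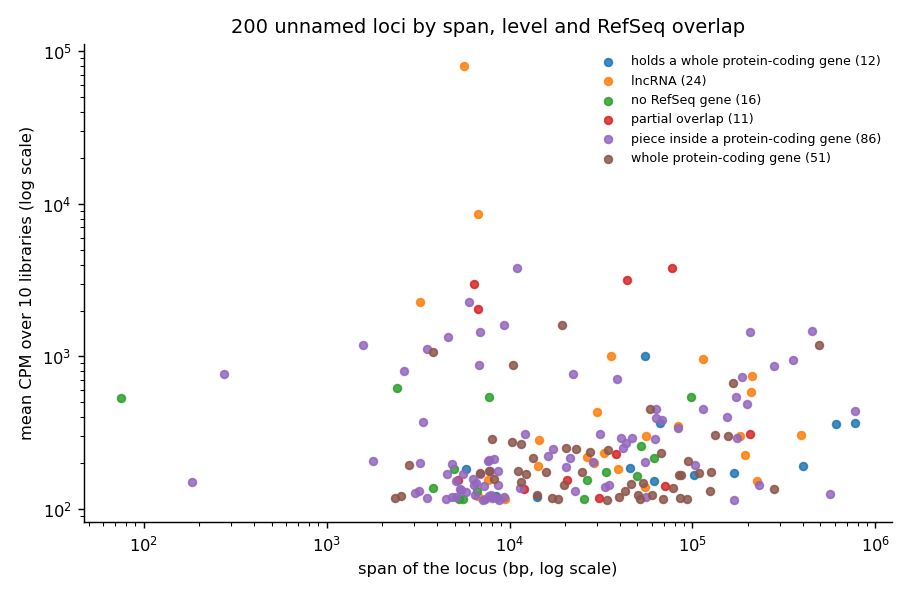
Each point is 1 of the 200 loci, with its span in bp on the x axis and its mean CPM over 10 libraries on the y axis (both log scales), coloured by its overlap with RefSeq genes. A single lncRNA locus of 5662 bp stands at 80312 CPM, while loci of 75 to 777970 bp lie between 114 and 8513 CPM.

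The members' spans ran from 75 to 777970 bp with a median of 21879.5 bp, against 4678.5 bp over all unnamed loci and 20173 bp over named ones. Because CPM grows with transcript length, a rule on CPM favours long loci. The 3 longest were ENSSSCG00000010212, which holds ANK3 (777970 bp), ENSSSCG00000052612, a piece of DMD (777965 bp), and ENSSSCG00000009125, which holds ANK2 (606113 bp). ANK2 and ANK3 encode ankyrins, which anchor membrane channels to the cytoskeleton, and DMD encodes dystrophin, which ties the muscle cytoskeleton to the membrane. The 3 shortest were ENSSSCG00000054645 (75 bp, no RefSeq gene), ENSSSCG00000023953 (184 bp, inside IPO7) and ENSSSCG00000020505 (276 bp, inside ATG16L1). Per length they ranked among the highest, with 14953, 1613 and 5518 TPM, the authors' length-corrected level (TPM) rescaled to the chromosomes. The identifiers of 14 members had a symbol in a reference table, among them HNRNPA2B1, YWHAZ, RPS24 and FOXO3.

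How often members overlapped named genes depended on the bound set for an overlap. On the same strand, 22 members overlapped a named gene by at least 1 base, 11% against 3.54%, and for 17 of these the name was that of a small RNA. On the opposite strand only, 13 did (6.5% against 4.75%). With at least 50% of the span inside the named gene, the shares were 2.5% of members against 2.65% of all unnamed loci on the same strand and 2.5% against 3.54% on the opposite strand. A further 64 lay within 10 kb of a named gene (32% against 23.3%) and 101 farther away (50.5% against 68.4%). The members were spread over all 18 autosomes and X, with the fewest on chromosome 16 (3 members) and the most on chromosomes 7 and 14 (17 members each).

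The summed share of the 200 loci in chromosomal counts was 16.0%, 19.3%, 15.9%, 16.4% and 13.6% in the control libraries, 20.2% and 10.4% in DOCA libraries 6 and 7, and 21.5%, 18.6% and 17.3% in libraries 8 to 10. Both the second highest and the lowest value thus belonged to the DOCA group, and the groups overlapped. Without the most abundant locus the share lay between 6.96% and 13.4%, lowest in library 7 and highest in library 8. By TPM, which corrects for length, the share was lowest in libraries 6 and 7, at 8.46% and 6.57%, against 9.56% to 13.3% in the other 8.

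The members ranked 1 and 2 by mean CPM lay in a block of 6 loci on chromosome 2 beside FRMD8, with no named gene between them. In human and mouse the region beside FRMD8 holds the nuclear lncRNA genes NEAT1 and, farther from it, MALAT1, the first the scaffold of paraspeckles and the second a component of nuclear speckles. Neither name occurs in the files or at these loci in RefSeq, where the overlapping lncRNAs are LOC102163816 and LOC100513133, and no sequence was compared, so that identity was not tested. By position, ending nearest to FRMD8, they are called A to F here. Locus A is ENSSSCG00000048856, minus strand of chromosome 2, 6751519 to 6757180, and B is ENSSSCG00000041050, plus strand of chromosome 2, 6757635 to 6793676. Locus C is ENSSSCG00000044913, minus strand of chromosome 2, 6797358 to 6803782, and D is ENSSSCG00000057738, plus strand of chromosome 2, 6797660 to 6804410. Locus E is ENSSSCG00000056754, minus strand of chromosome 2, 6804687 to 6811446, and F is ENSSSCG00000060056, plus strand of chromosome 2, 6808245 to 6811483. A and E held ranks 1 and 2, C, F and D ranks 6, 7 and 9, and B rank 20. Loci C and D overlap on opposite strands, as do E and F, and no source used here gave the strand setting of the counting, so reads of the overlapping pairs cannot be told apart.

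Locus A alone took 3.69% to 10.3% of chromosomal counts. It stood at 81382, 102613, 80530.5, 81126 and 60813 CPM in control libraries 1 to 5, 102255 and 36877 in DOCA libraries 6 and 7, and 93299, 76031 and 88192 in libraries 8 to 10. Library 7 lay below all others and library 6 within the control range, so the groups overlapped. In edgeR's test over 17251 genes its log2 change was -0.05 (SE 0.53, adjusted p = 0.956) for DOCA against control. Per length too, A was the highest of the 200 loci, at 48692 TPM.

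Loci B, C, D and E shared a pattern in which libraries 8 and 9 were the highest 2 of the 10. Locus E, the second most abundant member, stood at 4877, 4894, 5921, 4819.6 and 5196 CPM in control, 14565 and 7645 in DOCA and 14592, 15526 and 7089 in DOCA plus JK07. All 5 values of the treated libraries lay above all 5 controls. Its log2 change was 1.24 (SE 0.42, adjusted p = 0.059) for DOCA against control and 1.41 (SE 0.38, adjusted p = 1) for DOCA plus JK07 against control, so neither passed in edgeR. Locus C stood at 1206, 1207, 863, 1424 and 890.2 CPM in control, 1122 and 936 in DOCA and 9818, 10981 and 1407 in DOCA plus JK07, so that libraries 8 and 9 were far above library 10, which lay within the control range. Its change of 2.93 (SE 0.80, adjusted p = 0.0338) for DOCA plus JK07 against DOCA passed, but it was lost in 9 of the 10 fits that left out 1 library, with edgeR's adjusted p = 0.126 without library 7.

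Locus D stood at 855, 752, 508, 1043 and 448 CPM in control, 1105 and 2472 in DOCA and 5814, 6369 and 1060.4 in DOCA plus JK07. Locus B stood at 252, 309, 227, 437 and 148 CPM in control, 935 and 1144 in DOCA and 2796, 3306 and 536 in DOCA plus JK07. At both loci every treated library lay above every control. B was the only locus of the block called in DOCA against control, at 1.92 (SE 0.58, adjusted p = 0.0413), and that call was lost in 8 of the 10 leave-one-out fits, among them those without library 6 (adjusted p = 0.139) and without library 7 (0.0680). Locus F had another order, with 1103, 1271, 1407, 1412 and 1051 CPM in control, 10041 and 396 in DOCA and 1926, 1807 and 2294 in DOCA plus JK07. Library 6 was the highest of all and library 7 the lowest, and its log2 change of 2.37 (SE 0.84, adjusted p = 0.0697) did not pass. The neighbour FRMD8, at 5.03 to 32.7 CPM, had adjusted p = 0.0574 in DOCA against control and 0.197 in DOCA plus JK07 against DOCA.

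**Figure D2:**
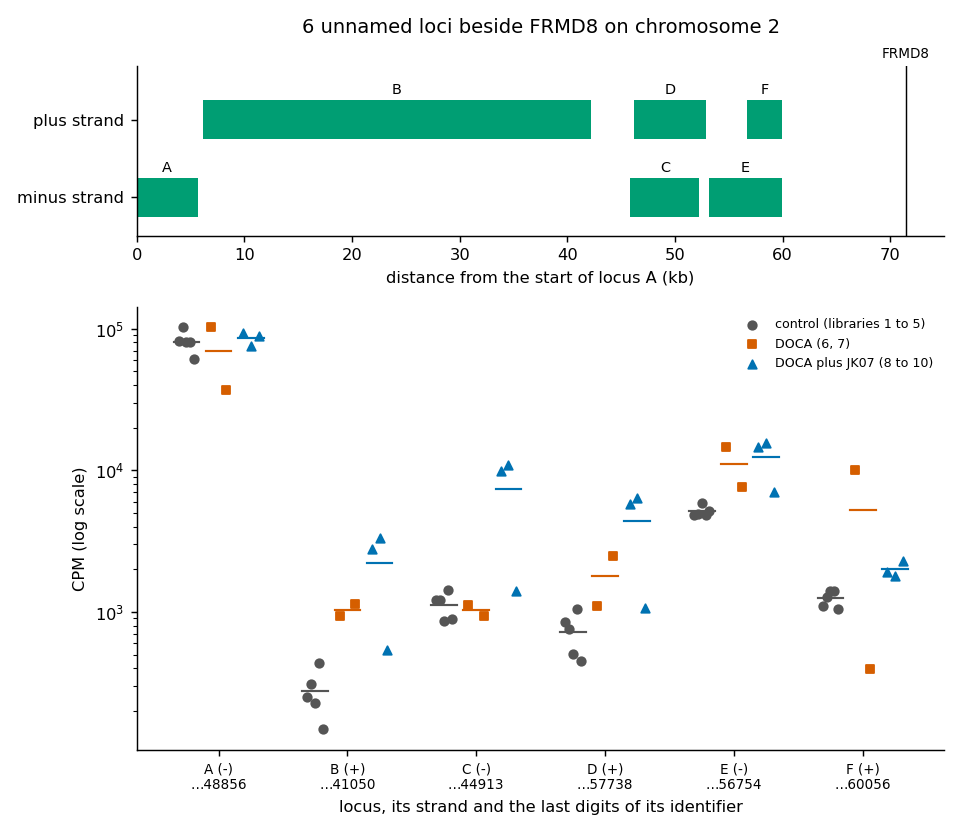
The upper panel maps loci A to F by distance from the start of locus A in kb and by strand, with FRMD8 as a line. The lower panel gives the CPM of each library on a log scale, with a line at each group mean: libraries 8 and 9 are the highest 2 at B, C, D and E, and locus F is highest in DOCA library 6, at 10041 CPM.

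Outside this block, 2 other members had libraries 8 and 9 as their highest pair. ENSSSCG00000061874, 1575 bp on chromosome 14 on the strand opposite to PHYHIPL, stood at 745, 419, 338, 433 and 352 CPM in control, 1079.6 and 1113 in DOCA and 2634, 4283 and 410.1 in DOCA plus JK07. As at locus C, library 10 lay within the control range, while both DOCA libraries lay above it. ENSSSCG00000056577, 52 bp from WAC on the opposite strand, stood at 286, 304 and 166 CPM in libraries 8 to 10 and at 197, 214, 217, 267 and 218 in control, and was listed at 0 in both DOCA libraries.

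Titin is the giant spring protein that spans the sarcomere from Z disc to M line. No row carried the name TTN, and 6 members on the minus strand of chromosome 15 overlapped RefSeq TTN (84226953 to 84501320). In order along the minus strand they were ENSSSCG00000061723, ENSSSCG00000042430, ENSSSCG00000053021, ENSSSCG00000034677, ENSSSCG00000038561 and ENSSSCG00000036052. The piece of 11045 bp, ENSSSCG00000053021, stood at 3910.3, 6112, 4028, 4306 and 3508 CPM in control, 897 and 2103 in DOCA and 5492, 2874 and 4677 in DOCA plus JK07. Both DOCA values lay below all 8 others. In DOCA it fell, to -1.67 (SE 0.38, adjusted p = 0.0123) on the log2 scale. DOCA plus JK07 was above DOCA by 1.79 (SE 0.41, adjusted p = 0.014). Without library 6 these were -1.42 (adjusted p = 0.0732) and 1.54 (adjusted p = 0.0686), and neither passed.

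Of the 6 pieces, 4 fell in DOCA against control and 4 were higher in DOCA plus JK07 than in DOCA. The 2 comparisons share the DOCA libraries. None of the 4 calls in DOCA plus JK07 against DOCA held in all leave-one-out fits: ENSSSCG00000053021, ENSSSCG00000034677 and ENSSSCG00000042430 lost it without library 6 or 8, and ENSSSCG00000036052 without library 7 (adjusted p = 0.0565). The last piece, ENSSSCG00000036052, went from 1222, 1802, 1388, 1278 and 879 CPM in control to 373 and 519 in DOCA and stood at 1288, 898 and 1460.0 in DOCA plus JK07. Its change in DOCA, -1.60 (SE 0.34, adjusted p = 0.0087), was called in each of the 10 leave-one-out fits. The calls of ENSSSCG00000034677 (-1.42, adjusted p = 0.021) and ENSSSCG00000042430 (-1.13, adjusted p = 0.0208) were lost without library 6, with adjusted p = 0.107 and 0.101, and the second also without control library 4. ENSSSCG00000038561 stood at -1.02 and did not pass (adjusted p = 0.0827). The first piece, ENSSSCG00000061723, which reaches past the RefSeq gene toward CCDC141, stood at 2311, 3487, 3134, 2540.4 and 2469 CPM in control, 3093 and 2837 in DOCA and 3395, 3330.5 and 5073 in DOCA plus JK07. Both DOCA values lay within the control range, and its log2 change was 0.13 (SE 0.31, adjusted p = 0.796). Whether the first piece differed from the others in its response was not tested.

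**Figure D3:**
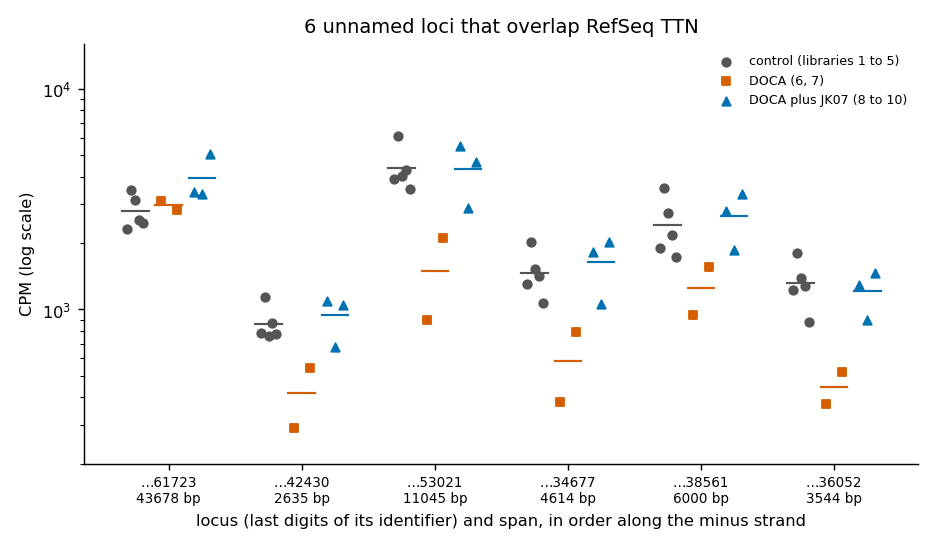
CPM of the 6 loci overlapping TTN, on a log scale, in order along the minus strand, with 1 point per library and a line at each group mean. At the 5 loci after the first, both DOCA libraries lie below all control libraries.

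Together with the titin pieces, 21 members overlapped genes of the muscle scaffold, a list made by RefSeq symbol after the values had been seen. In DOCA against control 2 of 21 rose (SYNM and SYNE1) and 7 fell, which was 1 and 6 without library 6 and 3 and 6 without library 7. In DOCA plus JK07 against DOCA 8 were higher and 0 lower, which was 5 and 1 without library 7. Over all genes tested 5.73% rose and 19.7% fell in DOCA, and 14.7% were higher and 2.25% lower in DOCA plus JK07 than in DOCA, and nothing is read from the counts of a list chosen afterwards. LAMA2, whose product is the laminin of the muscle basement membrane, was split into ENSSSCG00000033894 and ENSSSCG00000004207. The first changed by -0.75 (SE 0.19, adjusted p = 0.0201), a call lost without control library 2, control library 4 or DOCA library 6 (adjusted p = 0.0817). The second stood at 467, 417, 496, 486 and 407 CPM in control, 116 and 226 in DOCA and 418, 382 and 409 in DOCA plus JK07, with both DOCA values below all others. Its fall was -1.49 (SE 0.17, adjusted p = 0.000183) on the log2 scale, and DOCA plus JK07 was above DOCA by 1.45 (SE 0.18, adjusted p = 0.00031). Both calls held in each leave-one-out fit. The DMD piece ENSSSCG00000052612 stood at 474, 648, 569, 401 and 317 CPM in control, 160.5 and 174 in DOCA and 628, 405 and 588 in DOCA plus JK07, with a change of -1.52 (SE 0.37, adjusted p = 0.0157) in DOCA. Without library 7 that became -1.27 (adjusted p = 0.0859). SYNM, encoding the intermediate filament protein synemin, rose from 124 ± 32.1 CPM (SD, n = 5) to 290.1 ± 93.3 (SD, n = 2). Its locus ENSSSCG00000035223 had a log2 change of 1.34 (SE 0.36, adjusted p = 0.026), but without library 6 it was 0.51 (adjusted p = 0.362). AHNAK pieces ENSSSCG00000055375 and ENSSSCG00000033010 had their highest value in library 7, at 3867 and 2281 CPM, and passed no test. ENSSSCG00000034367, inside MACF1 on the strand opposite to the named row of that cytoskeletal linker, had 0.45 (adjusted p = 0.232) and did not pass.

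Of 199 members tested in DOCA against control, 24 rose and 42 fell at an adjusted p under 0.05, and over all 17251 genes 25.5% were called (5.73% higher, 19.7% lower). Rising members were thus 12.1% and falling ones 21.1%. The rule itself adds to the rises, since the DOCA libraries entered the mean that chose the members: 16 members, 8 of the 24 rises and none of the falls among them, are not among the 200 loci of highest mean CPM over the other 8 libraries. The rises of those 8 are a description and support nothing. Over the 200 loci chosen without the DOCA libraries, an alternative added after seeing the data, 16 rose and 47 fell. The members' median log2 change was -0.10, against -0.63 over all genes tested and -1.52 over the 4712 unnamed loci tested. Upper quartile scaling gave 33 higher and 32 lower in place of 24 and 42, and limma on TPM gave 3 and 68. Over all 17251 genes, limma on TPM called 5191. Most rises were lost without library 6: then 6 members were higher and 59 lower, and 5 of the 24 rises held. Without library 7 there were 46 and 36. In such fits the lone DOCA library is assumed to vary like the other groups. Shares over all genes are not given for them or for upper quartile scaling. Nothing particular to the members is therefore read from these counts. In each of the 10 fits without 1 library, 28 of the 66 calls held, 4 of them rises, and of the 24 falls 15 were members listed at 0 in both DOCA libraries. Leaving out either DOCA library leaves those 15 at 0 in the other, so that they held supports nothing. Of the 4 rises, ENSSSCG00000053934 and ENSSSCG00000051575 entered the list through their DOCA values. With library weights that let the spread differ (limma voom), 5 members passed, 4 lower and 1 higher, beside 161 of 17251 genes. The higher one was ENSSSCG00000053934, and 1 of the 4 lower, ENSSSCG00000047910, was listed at 0 in both DOCA libraries, so these calls support nothing. The others were the second LAMA2 locus ENSSSCG00000004207, ATP5B and SMC5. By CPM alone, both DOCA libraries lay above all controls in 30 of the 200 members (9.63% over all loci counted) and below all of them in 55 (26.5%).

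The library size that the test used, per chromosomal count, differed between the DOCA libraries. Relative to the mean of all libraries it was -0.29 in library 6 and 0.39 in library 7 on the log2 scale, against -0.15 to 0.09 in the other 8, so fitted changes differ from ratios of the printed CPM.

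The 4 rises that held in each leave-one-out fit are named here after their values were seen. The largest was ENSSSCG00000053934, a locus of 6644 bp on the plus strand of chromosome 2, 9441 bp from SLCO6A1 and touching no RefSeq gene. It stood at 12.7, 60.7, 15.0, 16.0 and 18.6 CPM in control, 763 and 322 in DOCA and 80.4, 13.3 and 19.3 in DOCA plus JK07. It entered the list through its DOCA values, with a mean of 29.5 CPM over the other 8 libraries, so its rise is a description only. Its log2 change was 4.58 (SE 0.87, adjusted p = 0.00429) for DOCA against control and -3.84 (SE 1.03, adjusted p = 0.0322) for DOCA plus JK07 against DOCA, the second of which was lost without library 6 (-2.58, adjusted p = 0.143), 9 or 10. RBM24 is a muscle splicing factor, and its locus ENSSSCG00000038455 stood at 103, 154, 199, 133 and 186 CPM in control, 439 and 519 in DOCA and 300.4, 250.2 and 371 in DOCA plus JK07. All treated libraries lay above all controls, and DOCA against control gave 1.63 (SE 0.27, adjusted p = 0.00172). A second RBM24 locus directly after it, ENSSSCG00000061649, stood at 166, 188, 130.2, 123 and 126 CPM in control, 96.4 and 52.2 in DOCA and 278, 190.3 and 205 in DOCA plus JK07. Its change in DOCA was -0.86 (SE 0.41, adjusted p = 0.173) and DOCA plus JK07 was above DOCA by 1.61 (SE 0.46, adjusted p = 0.0412), a call kept in 2 of the 10 leave-one-out fits and lost without library 7 (1.03, adjusted p = 0.102). The difference between the 2 loci was not tested. MPRIP, which binds myosin phosphatase, went from 132 ± 23.6 CPM (SD, n = 5) to 322 ± 22.1 (SD, n = 2) at ENSSSCG00000036812, which gave 1.31 (SE 0.23, adjusted p = 0.0026) on the log2 scale. ENSSSCG00000051575, a lncRNA locus on chromosome 18, changed by 1.62 (SE 0.31, adjusted p = 0.00429), and by 0.74 (adjusted p = 0.0416) without library 6. It too entered the list through its DOCA values, with a mean of 87.6 CPM over the other 8 libraries.

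Other large rises did not hold without 1 of the DOCA libraries. ENSSSCG00000051466, 38784 bp inside SGMS2, stood at 477, 226, 138, 188 and 225 CPM in control, 3411 and 243 in DOCA and 1441, 705 and 116 in DOCA plus JK07, so that library 6 was far above all controls and library 7 within their range. SGMS2 makes sphingomyelin, and its named row rose as well (log2 change 2.92, SE 0.72, adjusted p = 0.0172), from 7.63 to 14.6 CPM in control to 125 in library 6 and 25.0 in library 7. The locus had a log2 change of 3.16 (SE 1.02, adjusted p = 0.0493), which turned to -0.39 without library 6. ENSSSCG00000056903, a piece of RBM20, stood at 252, 161, 166, 219.5 and 177 CPM in control. It was at 1393 and 162 CPM in DOCA and 518, 389.7 and 272 in DOCA plus JK07. Its change of 2.28 (SE 0.67, adjusted p = 0.0375) turned to -0.61 without library 6. The named RBM20 row, at a mean of 253 CPM, rose in DOCA by 1.32 (adjusted p = 0.00857), and its fits without 1 library are not given here. ENSSSCG00000055583 near EMC10 stood at 102, 208, 249, 279 and 176 CPM in control, 2568 and 448 in DOCA and 525, 501 and 1115 in DOCA plus JK07. Both DOCA values lay above all controls, and its change of 3.14 (SE 0.67, adjusted p = 0.00792) became 0.79 (adjusted p = 0.338) without library 6. ENSSSCG00000002749, which holds HP, the gene of the plasma protein haptoglobin, stood at 24.9, 52.9, 33.3, 98.7 and 29.5 CPM in control, 58.0 and 811 in DOCA and 11.1, 41.6 and 55.4 in DOCA plus JK07. It entered the list through library 7, and its mean over the 8 libraries outside DOCA was 43.4 CPM. Its 2.89 (SE 0.80, adjusted p = 0.0288) was lost without control library 1, 2, 3 or 5 and became 0.61 (adjusted p = 0.601) without library 7, the library with the highest fibroblast marker sum, whose part in this value was not tested.

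**Figure D4:**
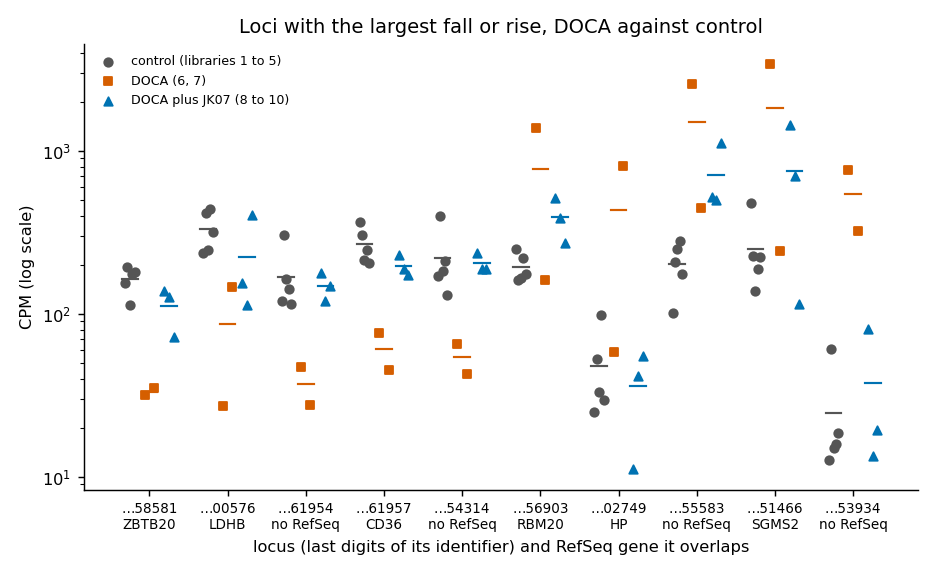
CPM by library, on a log scale, of the 5 members with the largest fall and the 5 with the largest rise in DOCA against control among members above 0 in every library, with a line at each group mean. The falls show both DOCA libraries below all controls, while RBM20, HP and SGMS2 each have 1 DOCA library within the control range.

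The 9 falls that held in each leave-one-out fit and were above 0 in DOCA, chosen after the values were seen, included the last TTN piece and the second LAMA2 locus given above. ATP5B, the catalytic subunit of ATP synthase, lay at ENSSSCG00000000405 and went from 408, 466, 312, 423 and 352 CPM in control to 110.3 and 123 in DOCA and 244, 176 and 253 in DOCA plus JK07, with both DOCA values below all others. Its change was -1.74 (SE 0.28, adjusted p = 0.00139). CD36, which takes up fatty acids, went at ENSSSCG00000061957 from 368, 306, 216, 247 and 205 CPM to 76.7 and 45.4 and stood at 230.0, 189.5 and 174 with JK07. Its change in DOCA was -2.02 (SE 0.43, adjusted p = 0.00802). ENSSSCG00000058581, a piece of ZBTB20 on the plus strand of chromosome 13, stood at 156, 193, 114, 175 and 181 CPM in control, 31.8 and 34.9 in DOCA and 137, 127 and 72.5 in DOCA plus JK07 and changed by -2.28 (SE 0.36, adjusted p = 0.00131). SMC5, a subunit of a chromosome maintenance complex, fell at ENSSSCG00000005255 from 144 ± 19.6 CPM (SD, n = 5) to 44.4 ± 17.2 (SD, n = 2), by -1.76 (SE 0.20, adjusted p = 0.000174). YWHAZ, a 14-3-3 adaptor protein, fell at ENSSSCG00000006062 from 291 ± 70.4 to 88.5 ± 9.91 CPM, by -1.65 (SE 0.31, adjusted p = 0.00403). The others were SF3B1, a core splicing factor (ENSSSCG00000016075, -1.0, adjusted p = 0.0117), and ZC3H11A, an RNA export factor (ENSSSCG00000028035, -0.91, adjusted p = 0.00667).

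Large falls that did not hold without 1 library included LDHB, the heart subunit of lactate dehydrogenase. Its locus ENSSSCG00000000576 stood at 237, 417, 248, 440.3 and 319 CPM in control, 27.1 and 146 in DOCA and 155, 113 and 403 in DOCA plus JK07. Both DOCA values lay below all controls, and the change of -2.16 (SE 0.65, adjusted p = 0.0397) became -1.54 (adjusted p = 0.163) without library 6 and was lost in 7 of the 10 leave-one-out fits. Loci ENSSSCG00000054314 and ENSSSCG00000061954, which follow each other on the plus strand of chromosome 8 and touch no RefSeq gene, stood at 65.2 and 42.9 and at 47.0 and 27.8 CPM in DOCA, against 219 ± 104 and 169 ± 78.3 CPM in control (SD, n = 5). Their changes of -1.94 (adjusted p = 0.0301) and -2.09 (adjusted p = 0.0258) were lost without library 7, the first also without control library 4.

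The other functional groups were lists made by RefSeq symbol after the values had been seen, and are counts only. They stand beside 5.73% higher and 19.7% lower over all genes in DOCA, and nothing is read from them. Among 15 loci of RNA processing genes, 5 rose and 3 fell in DOCA, which became 1 and 8 without library 6. The locus ENSSSCG00000050147 inside RBM20, 1 of the 5, entered the list through DOCA values. The most abundant was DDX17, an RNA helicase gene, at ENSSSCG00000000104, with 1059.7, 2063, 1649, 2063 and 1729.6 CPM in control, 1068 and 1483 in DOCA and 1569, 1709 and 1648 in DOCA plus JK07, and its change of -0.45 (SE 0.28, adjusted p = 0.267) did not pass. Inside RBM20, the gene of a splicing regulator whose best known target is titin, lay ENSSSCG00000056393, ENSSSCG00000056903 and ENSSSCG00000050147. The first and second are on the plus strand and the last is on the minus strand, so not all of them can be on the strand of the gene. Together they summed to 541 to 3730 CPM, highest in library 6 and lowest in library 7. Among 6 loci of fuel use, 0 rose and 3 fell (ATP5B, LDHB and CD36). SLC2A3, MPC1 and SLC25A29 did not pass. Among 8 loci of translation, 0 rose and 2 fell: EEF1A1, an elongation factor (ENSSSCG00000004489), went from 1369.7 ± 240.3 CPM (SD, n = 5) to 619 ± 434 (SD, n = 2), which is -1.29 (SE 0.30, adjusted p = 0.0127) on the log2 scale. RPS24 (ENSSSCG00000039544) changed by -1.07 (SE 0.28, adjusted p = 0.0219). EEF1A1 was lost without library 6 (adjusted p = 0.0659) and RPS24 without library 7 (adjusted p = 0.0904). EEF1A1 and ribosomal protein genes have near-identical copies in the genome, so their counts are uncertain.

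The L-type calcium channel gene CACNA1C had 5 pieces among the members, all on the plus strand of chromosome 5 between 69070513 and 69140871. Counted with them was 1 locus, ENSSSCG00000047783, inside its partner CACNB2 but on the strand opposite to the named row of that gene. None of the 6 passed in DOCA against control or in DOCA plus JK07 against DOCA. The most abundant piece, ENSSSCG00000058476, stood at 142, 115, 142, 177 and 83.4 CPM in control, 273 and 101 in DOCA and 223, 247 and 283 in DOCA plus JK07, with library 7 within the control range and library 6 above it. Changes of the other 4 pieces (ENSSSCG00000060500, ENSSSCG00000061688, ENSSSCG00000062516 and ENSSSCG00000057967) in DOCA ran from 0.12 to 0.49, and the named CACNA1C row had a log2 change of 0.94 (adjusted p = 0.189). The median log2 change of the 6 loci in DOCA against control was -0.88 without library 6 and 0.91 without library 7. In DOCA plus JK07 against DOCA it was 1.73 without library 6 and -0.18 without library 7. Each of these fits leaves 1 DOCA library, and pieces of the same gene are not independent, so nothing is read from these medians.

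Of 21 loci of transcription factor and chromatin genes, 0 rose and 4 fell in DOCA, which were a locus of TET2, a DNA demethylase, 1 inside SOX5 and 2 inside ZBTB20. The TET2 call held in 1 of the 10 leave-one-out fits, and the SOX5 locus and 1 of the ZBTB20 loci were listed at 0 in both DOCA libraries. Without library 6 there were 9 falls, and without library 7 5 rises and 3 falls. ZBTB20, a zinc finger repressor, had 4 loci inside it, and the 2 that fell lay on the plus strand. On the minus strand, ENSSSCG00000054263 and ENSSSCG00000061494 stood at -0.17 and -0.33 and did not pass (adjusted p = 0.775 and 0.594). Not all of the 4 can thus be on the strand of the gene. The named ZBTB20 row, at a mean of 121 CPM, changed by -0.14 in DOCA and did not pass (adjusted p = 0.788). RAI2 had 4 members inside it on X, none of which passed. One of them, ENSSSCG00000056011, stood at 36.5, 258, 114, 146 and 59.0 CPM in control, 54.6 and 0 in DOCA and 171, 133 and 169 in DOCA plus JK07. The 3 members whose nearest long named gene was HAND2, a cardiac transcription factor, were ENSSSCG00000046589, ENSSSCG00000043271 and ENSSSCG00000058445. ENSSSCG00000046589 stood at 969, 1459, 1311, 1141 and 860.0 CPM in control, 975 and 617 in DOCA and 947, 671 and 1076 in DOCA plus JK07, with a change of -0.43 (SE 0.39, adjusted p = 0.436). HAND2 itself, at 23.0 to 63.3 CPM, had a log2 change of 0.48 (adjusted p = 0.265).

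Listed zeros were concentrated in the DOCA libraries and in long models without introns. In the control libraries 1 to 5 of the 200 members were at 0, in libraries 8 to 10 there were 1 to 3, and in DOCA libraries 6 and 7 there were 17 and 28. Of all expressed chromosomal loci, 19.2% and 23.9% were at 0 in libraries 6 and 7, larger shares than among the members. Zeros in DOCA were thus not particular to the members. The 17 members at 0 in both DOCA libraries included 15 above 0 in all other libraries, with spans of 30785 to 447670 bp. All 29 members with a 0 anywhere had models whose length was over 0.9 of their span, and 27 of the 29 spanned at least 30 kb. Among members of at least 30 kb, 27 of 42 without introns had a 0, against 0 of 48 spliced ones. Of the members' 1933 coverage values above 0, 9 were under 1, so a listed 0 here stands for a coverage under about 1. Over a long model a coverage of 1 is a large count, and a listed 0 allows values up to about that count.

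The largest of them was ENSSSCG00000052253, 447670 bp inside ZBTB20 on chromosome 13, at 2719, 2304, 2139, 1443 and 1739 CPM in control and 1912, 1585 and 837 in libraries 8 to 10. A coverage of 1 there corresponds to 865 CPM in library 6 and 1815 CPM in library 7, so the listed 0 places library 6 below the lowest control of 1443 CPM, and library 7 not. ENSSSCG00000059862, inside SOX5, stood at 786, 1721, 1095, 1453 and 655 CPM in control, against minimums of 548 and 1149 CPM. At library 6, the control mean was above the minimum for 15 of 17 members at 0 and over 2 times the minimum for 11. At library 7 it was above for 14 of 28 and over 2 times for 2. The test called 16 of the 17 members at 0 in both DOCA libraries lower, and since fitted changes against 0 depend on a prior count, no size is given for them.

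**Figure D5:**
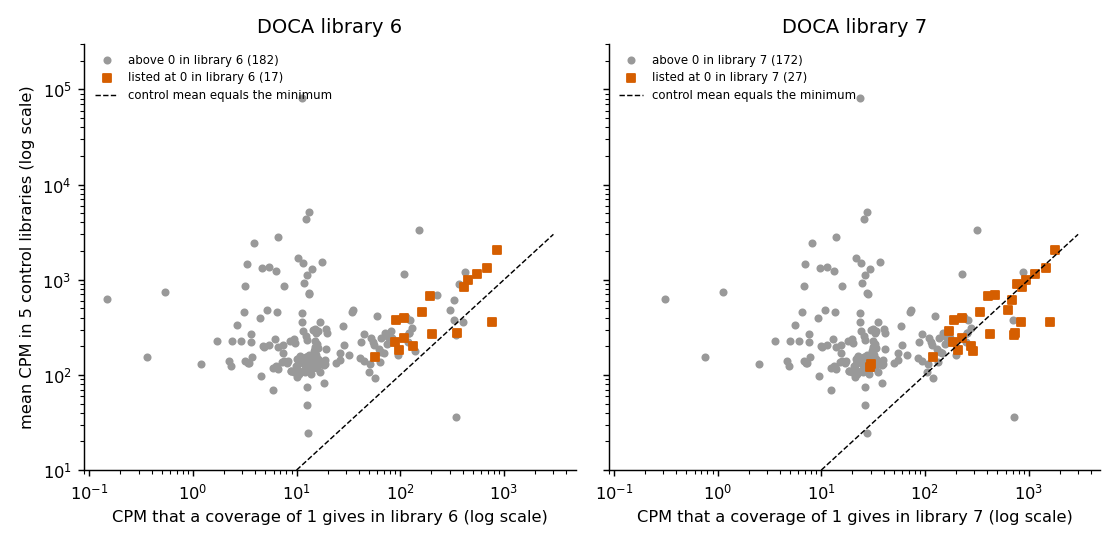
Each point is a member, with the CPM that a coverage of 1 gives in the DOCA library on the x axis and its mean CPM in the 5 control libraries on the y axis (both log scales). Squares are members listed at 0 in that library, and 15 of 17 lie above the dashed line of equality in library 6, against 14 of 28 in library 7. A member with a control mean of 0 is not drawn.

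Loci that hold microRNAs were among these zeros. Of 8 members that hold a named microRNA on their own strand, 4 were at 0 in both DOCA libraries and above 0 in the other 8. They were ENSSSCG00000048207 (ssc-let-7c and MIR99A), ENSSSCG00000057763 (ssc-mir-374a), ENSSSCG00000061089 (ssc-mir-30c-2 and ssc-mir-30a) and ENSSSCG00000051290 (MIR15A and ssc-mir-16-2). All 4 span at least 30 kb without introns, and 27 of 42 such members had a 0, so nothing is read from this count. ENSSSCG00000048207 stood at 1618, 1329, 1054, 1073 and 1646 CPM in control and 1058, 1190.3 and 547 in libraries 8 to 10, against minimums of 694 and 1455 CPM. The second minimum, of library 7, lies above the control mean of 1344 CPM, so the 0 there does not place that library below control. ENSSSCG00000061089 stood at 310.4, 532, 363, 397 and 276 CPM and 373, 318 and 340.0, against 91.7 and 192 CPM, so there its listed 0 lay below all controls in both DOCA libraries. ENSSSCG00000047910, a lncRNA locus of 211133 bp on X with ssc-mir-421 and MIR374B on the opposite strand, stood at 1127, 994, 969, 826 and 1107 CPM in control and 860.1, 755 and 809.7 with JK07, against minimums of 451 and 946 CPM.

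The other 4 had values in all libraries. ENSSSCG00000048702, 76976 bp with ssc-mir-30d and ssc-mir-30b, was the fourth most abundant member, at 4431, 3891, 2636, 2868 and 2899.9 CPM in control, 6076 and 1407 in DOCA and 7466, 3134 and 2901 in DOCA plus JK07. Library 7 was the lowest and library 8 the highest, and its change in DOCA was 0.38 (SE 0.65, adjusted p = 0.696). ENSSSCG00000010943, with MIR27B and ssc-mir-23b, went from 247, 149, 252, 207 and 347 CPM in control to 660.1 and 578 in DOCA and 268, 332 and 358 in DOCA plus JK07. Both DOCA values lay above all others, and the change of 1.43 (SE 0.29, adjusted p = 0.00672) became 0.93 (adjusted p = 0.0770) without library 6. Mature microRNAs are not measured by libraries of this kind. Of 6 members with a snoRNA on their strand, 1 rose (ENSSSCG00000041731, SNORA71) and 1 fell (ATP5B, with SNORD59A). Over all genes 5.73% rose and 19.7% fell, and nothing is read from so few loci. ENSSSCG00000041731 is 1 of the 8 rises that entered the list through DOCA values.

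Of the 16 loci that touch no RefSeq gene, 4 rose and 4 fell in DOCA, which became 1 and 6 without library 6, beside 5.73% and 19.7% over all genes. With so few loci nothing is read from these counts, and 1 of the 4 rises is ENSSSCG00000053934, which DOCA values brought into the list. ENSSSCG00000043271, 98472 bp long and 22874 bp from HAND2 on the plus strand of chromosome 14, was at 482, 1035, 552, 786 and 490.0 CPM in control, at 0 in both DOCA libraries (minimums of 193 and 405 CPM) and at 835, 512 and 736 with JK07. ENSSSCG00000035996, 61493 bp from CD34, stood at 287, 337, 304, 356 and 248 CPM in control, 2139.6 and 335 in DOCA and 566, 369.9 and 471 in DOCA plus JK07, so that library 6 was far above the rest, and its change of 2.27 (SE 0.60, adjusted p = 0.0244) turned to -0.23 without library 6. The 75 bp locus ENSSSCG00000054645 stood at 572, 351, 687, 852 and 683 CPM in control and 352 and 40.5 in DOCA, with library 7 lowest, and did not pass, at -1.39 (SE 0.79, adjusted p = 0.238).

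One member could not be tested. ENSSSCG00000046151, 224121 bp on chromosome 4 overlapping the lncRNA LOC106509952, with MYC as its nearest long named gene, was at 1533 CPM in DOCA library 6 and listed at 0 in the other 9. It entered the list through that library alone. A coverage of 1 there corresponds to 441 CPM in library 6 and 925 in library 7.

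In DOCA plus JK07 against DOCA, 37 members were higher and 4 lower, 18.6% and 2.01%, and over all genes 17% were called (14.7% higher, 2.25% lower). The median log2 change was 0.26 for the members, 0.55 over all genes tested and 1.21 over the 4712 unnamed loci tested. This comparison shares the DOCA libraries with the one before, so the 2 are not independent. Of the 37, 16 were members at 0 in both DOCA libraries. DESeq2 gave 44 higher and 17 lower, beside 5049 of 18311 genes called, and upper quartile scaling 29 and 7. Leaving out library 6 gave 66 higher and 2 lower, leaving out library 7 gave 32 and 28, and leaving out library 8 gave 24 and 3. Shares over all genes are not given for these fits or for upper quartile scaling, so nothing particular to the members is read from their counts. In each of the 10 leave-one-out fits 21 of 41 calls held, all higher, and 15 of these were at 0 in both DOCA libraries. Leaving out either DOCA library leaves those 15 at 0 in the other, so that they held supports nothing. The others that held, named after their values were seen, were the second LAMA2 locus, SF3B1, YWHAZ, ZC3H11A, the ZBTB20 piece ENSSSCG00000058581 and SMC5. With voom library weights 0 members and 5 of 17251 genes passed, while 57 members and 3073 genes (17.8%) had an unadjusted p under 0.05. By CPM alone, all 3 libraries lay above both DOCA libraries in 65 of the 200 members (26.5% over all loci counted) and below both in 29 (11.1%).

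SF3B1 at ENSSSCG00000016075 stood at 944, 751, 812, 867 and 886 CPM in control, 427 and 400.2 in DOCA and 923, 894 and 783 in DOCA plus JK07, with both DOCA values below all others, and was 1.16 (SE 0.24, adjusted p = 0.00908) above DOCA. The ZBTB20 piece was 1.88 (SE 0.37, adjusted p = 0.00578) above DOCA and SMC5 1.60 (SE 0.21, adjusted p = 0.000427). YWHAZ stood at 236, 307 and 258 CPM in DOCA plus JK07 against 95.5 and 81.5 in DOCA, which gave 1.67 (SE 0.33, adjusted p = 0.00609). FHL2, a LIM protein of the sarcomere, went at ENSSSCG00000008147 from 82.4 and 43.5 CPM in DOCA to 135, 303 and 303 with JK07, beside 163 ± 31.6 CPM (SD, n = 5) in control. Its 1.96 (SE 0.51, adjusted p = 0.0266) was lost without library 7 (1.38, adjusted p = 0.0728), 9 or 10. The chromosome 8 loci ENSSSCG00000054314 and ENSSSCG00000061954 were 1.96 (adjusted p = 0.0448) and 2.02 (adjusted p = 0.0449) above DOCA, and kept the call in 3 and 2 of the 10 leave-one-out fits. The 4 lower members were ENSSSCG00000053934, MPRIP, LARP4B and ENSSSCG00000051575, of which the first and the last entered the list through DOCA values. LARP4B, an RNA-binding protein, at ENSSSCG00000011162, stood at 158, 114, 153, 149.7 and 146 CPM in control, 271 and 274 in DOCA and 131, 121 and 147 in DOCA plus JK07, a change of -0.93 (SE 0.21, adjusted p = 0.0144). All 4 calls were lost without library 6.

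In DOCA plus JK07 against control no member passed in edgeR, as no gene did over the whole table (0% called). By CPM alone, all 3 libraries lay above all controls in 19 of the 200 members (1.64% over all loci counted) and below all of them in 6 (6.02%). The 19 include all CACNA1C pieces and loci B, D, E and F of the block beside FRMD8, which are not independent. At an unadjusted p under 0.05 in edgeR there were 22 members, 19 of them higher, and 803 of 17251 genes (4.65%). Libraries 8 to 10 also entered the mean that chose the members, so nothing is read from these counts. limma on TPM and limma voom with library weights also called 0 members, with 28 and 32 at an unadjusted p under 0.05. Over all genes 7.32% and 8.96% had such a p, and the adjusted calls were 0 and 8. DESeq2 called 6 members, all higher, and 116 of 18311 genes, with 6.94% of genes at an unadjusted p under 0.05. These were loci B, C, D and E of the block beside FRMD8, ENSSSCG00000061874 and RBM24. DESeq2's log2 changes were 3.11 (SE 0.56, adjusted p = 1.44e-05) for B, 2.83 (SE 0.57, adjusted p = 0.000288) for C and 2.72 (SE 0.54, adjusted p = 0.000259) for D. For E it was 1.38 (SE 0.38, adjusted p = 0.0442), for ENSSSCG00000061874 2.51 (SE 0.61, adjusted p = 0.00898) and for RBM24 1.09 (SE 0.26, adjusted p = 0.00690). In 5 of the 6, libraries 8 and 9 were the highest pair and library 10 stood apart from them, while at RBM24 the DOCA libraries were the highest.

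For the 42 members that fell in DOCA, the nearest long named gene had fallen in 8 cases, had risen in 0, did not pass in 27 and was not tested in 7. For the 24 that rose, it had risen in 4, fallen in 4, did not pass in 12 and was not tested in 4. For the 134 members not called, it had fallen in 27 and risen in 9. Over all genes 19.7% fell and 5.73% rose, and nothing is read from these counts. CCDC141, next to the titin pieces, fell by a log2 change of -1.36 (SE 0.34, adjusted p = 0.0179) in DOCA and was 1.57 (SE 0.36, adjusted p = 0.0148) higher with JK07. The named DMD row, 141487 bp from the DMD piece, changed by -0.58 (adjusted p = 0.276). SOX5 changed by -0.20 (adjusted p = 0.630), between 33 and 63.3 CPM, beside the member listed at 0 in both DOCA libraries.

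Within the control group the members' coefficient of variation over 5 libraries had a median of 22.7% and ran from 3.55% upward. The DOCA libraries often held the extremes: of 171 members above 0 in every library, 46 had their lowest value in library 6 and 41 in library 7, and of all 200 members 42 and 31 had their highest there. Control library 2 held the highest value of 38.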

How the data were processed

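The authors sequenced nuclear RNA of sorted cardiomyocytes from 10 libraries, extracted with TRIzol and made with the TruSeq RNA kit, per the labels' protocols. StringTie, SAMtools and edgeR on build Sscrofa11.1 appear in the submitters' processing notes. For aligner, versions and annotation release, "not given in the sources used here" applies. A table of coverage signal, FPKM and TPM for 35670 identifiers was deposited for each library, per the file headers. The authors also deposited 1 table of whole-number estimated counts without a gene column. It was joined by sorted identifier, after which the pattern of zeros matched for 99.998% of values, against 62.6% when moved by 1 line. The deposited FPKM values entered no test, and the deposited TPM values were used for levels per length and 1 alternative test.

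CPM used estimated counts and, as the total, their sum on the numbered chromosomes and X. The test was edgeR 4.0.16 (R 4.3.3), the quasi-likelihood F test with TMM scaling, filterByExpr and group as the only term over all 10 libraries. P-values were adjusted by Benjamini-Hochberg over 17251 genes with a threshold of 0.05, for each comparison. SE is the absolute log2 change divided by the square root of F. The spread rested mainly on the control and JK07 groups, since DOCA had 2 libraries, and the biological coefficient of variation was 0.873. The code was tested on simulated data. Alternatives were upper quartile scaling, chromosomal totals, DESeq2 1.42.0, no filter, chromosomal rows only, limma 3.58.1 voom with library weights, limma on log2(TPM + 1), each library left out, and other choices of members.

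RefSeq genes of the same build (Sscrofa11.1) were matched by position, whole meaning at least 80% of both spans. That bound and the functional lists were set after positions or values were seen. The members and lists were chosen with earlier results of these data known. Members named were the 12 of highest mean CPM, the 3 longest and 3 shortest, in each comparison the 5 largest called rises and 5 largest called falls among members above 0 in every library, up to 4 of each of the 3 largest runs, the 3 highest in each class of position, up to 3 at 0 in both DOCA libraries, and the 2 on each side of rank 200. Others are named by a list or as chosen afterwards. Coordinates are 1-based, as in the files. The depth, 3.24 M to 13.8 M chromosomal counts, sets the minimum below which a locus is listed at 0. No sequence was used here.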

Additional observations from a re-analysis of the deposited data

Results flagged for a closer look

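In the 5 control libraries, 45 named members were screened for a library far from the others, by Dixon's ratio of gap to range with a critical value of 0.71, and 5 were found. Chance flags about 1 group in 20. ENSSSCG00000061874, opposite to PHYHIPL, stood at 745 CPM in control library 1, against 433 in the next highest and a median of 419. The SGMS2 piece ENSSSCG00000051466 stood at 477 CPM in control library 1, against 226 in the next. LARP4B (ENSSSCG00000011162) was lowest in control library 2, at 114 CPM, against 146 in the next lowest. Control library 2 was also highest for ENSSSCG00000061954 on chromosome 8, at 305 CPM against 165, and for ENSSSCG00000053934 on chromosome 2, at 60.7 CPM against 18.6.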

How the results depend on the processing

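No paired analysis was possible because the library numbers run from 1 to 10 and no number is shared between groups. The count of members called in DOCA against control, 66, was 50 to 82 when 1 library was left out, 5 with voom library weights, 40 over the 100 loci of highest mean CPM and 115 over 400. For DOCA plus JK07 against DOCA, 41 became 27 to 68 when 1 library was left out, 0 with voom weights, 89 with limma on log2(TPM + 1), 27 over 100 loci, 69 over 400 loci and 27 over the 200 loci of highest mean TPM, which share 94 with the members. Over all 17251 genes, limma on log2(TPM + 1) called 5626 in DOCA plus JK07 against DOCA. The changes with 100 and 400 loci follow from the number of loci. For DOCA plus JK07 against control, 0 became 6 in DESeq2. Where the cause is not given, it was not tested. Of 493 alternative values of 29 named results, 368 kept their direction and call, 123 kept the direction and lost the call, 28 of these with voom weights, and 2 reversed: SGMS2 (-0.39) and RBM20 (-0.61) without library 6, against 4.10 and 3.17 without library 7. With at least 50% of the span inside a named gene, same-strand overlaps became 5 and opposite-strand ones 5. With 50 kb as near, 115 members were near and 50 farther. The members' mean share of TPM was 11.09%, 7.52% and 12.6% in control, DOCA and DOCA plus JK07, against 16.2%, 15.3% and 19.1% of counts. With 2 DOCA libraries, of which 1 had 3.24 M chromosomal counts, low values of long loci without introns were not detectable in that group.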
